A study of Homo sapiens with 16 samples.

Results

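Chromosome 9 carried 1395 of the 44922 TOP2B intervals in the 4 deposited peak lists, and they are described here by position. All intervals assigned to chromosome 9 were taken, and each was placed by its midpoint: 583 lay from 120 Mb to the end of the chromosome and 812 lay before 120 Mb (GRCh37, positions counted from 1). Each list comes from 1 condition of PC9, a human cell line established from a lung adenocarcinoma whose growth depends on mutant EGFR, and was made by the authors from 2 replicate CUT&RUN libraries. CUT&RUN uses an antibody to direct a nuclease to the DNA around a protein, so that the released fragments mark where the protein sits. The 4 groups were wild-type PC9 untreated, wild-type PC9 under osimertinib, METTL7A knockout PC9 untreated and METTL7A knockout PC9 under osimertinib. Osimertinib inhibits mutant EGFR; treated cells received doses that were raised from 100 nM over 6 to 8 weeks. The labels do not say whether the knockout line was 1 clone or whether the replicates were separate cultures, and the METTL7A locus was not checked. With 1 list per condition there was no spread between replicates, no test between conditions and no p-value. The 95% intervals below are exact and cover counting error only, and neighbouring intervals are not independent.

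TOP2B is the beta isoform of DNA topoisomerase II. It passes one DNA duplex through a transient double-strand break in another, which relieves the twisting that transcription and chromatin loops put on DNA, and it is found mostly at open, active chromatin. METTL7A belongs to the methyltransferase-like family. Chromosome 9 has a large block of heterochromatin next to its centromere, while the end of its long arm is rich in genes and carries, among others, ABL1, TSC1 and NOTCH1. A genome or annotation of GRCh37 was not used here, so no gene, exon or sequence is assigned to any interval below.

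The first 66 Mb of chromosome 9, which include the short arm and the centromere, held 0 intervals in each of the 4 lists. By the rule of 3, an approximate 95% upper limit and not an exact interval, a count of 0 allows up to 3 intervals. This is 0.0196% of the untreated wild-type list, 0.0311% of the treated wild-type list, 0.024% of the untreated knockout list and 0.04% of the treated knockout list. The empty stretch reached from the start of the sequence to 66857850, a length of 66.9 Mb. Of the 23 chromosomes with intervals, only chromosome 4 had a longer stretch without an interval of any list (72.4 Mb), and chromosome 4 held 122 intervals in all. Lack of an interval means that the authors' list has no peak there. It does not measure the signal as zero, and how much of the stretch could yield peaks at all was not examined. All chromosome 9 intervals therefore lay on the long arm, and the plot of counts along the chromosome shows how differently the conditions filled it.

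**Figure D1:**
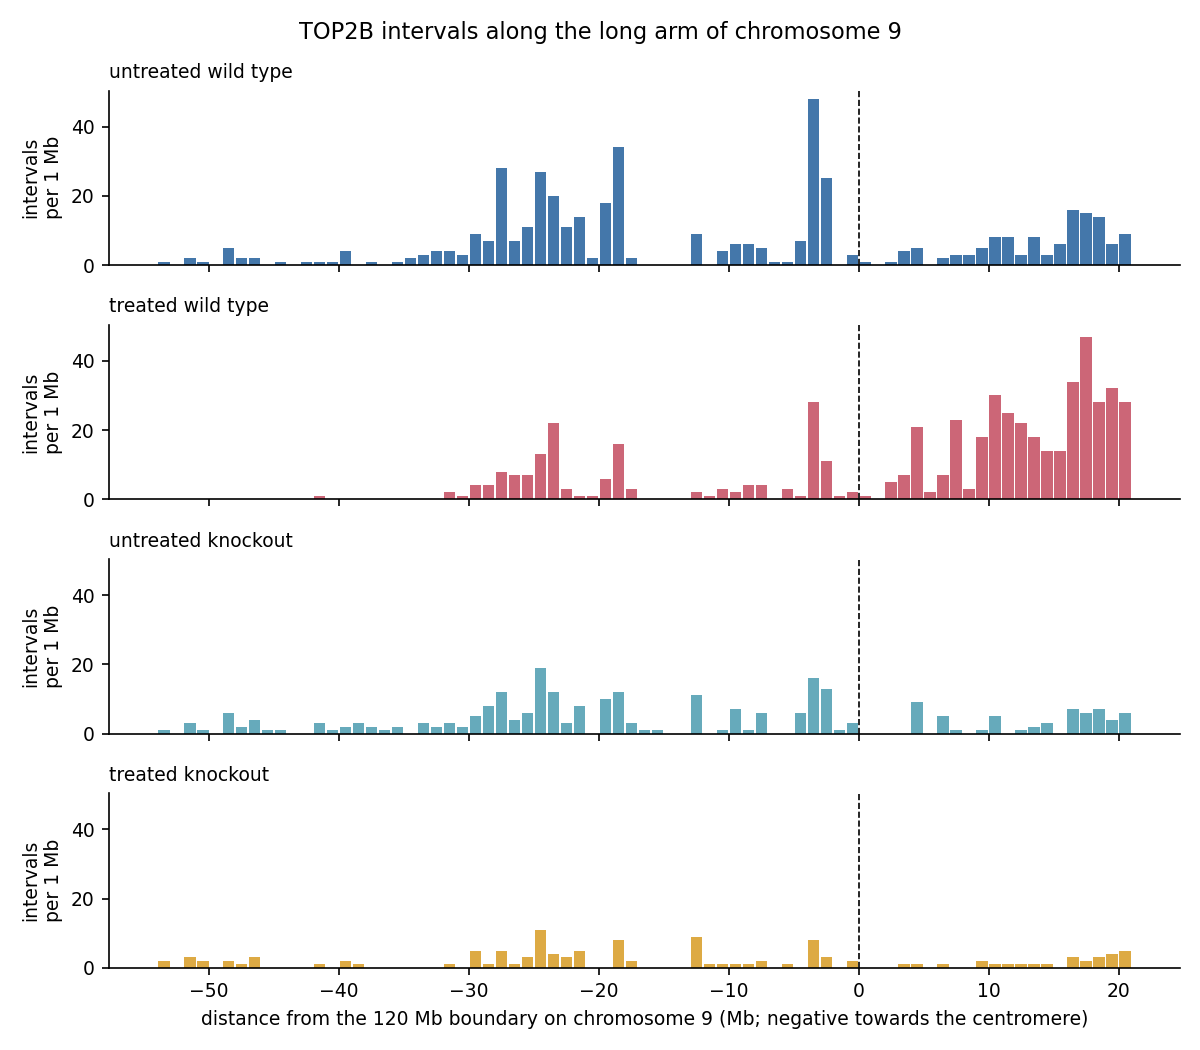
TOP2B intervals per 1 Mb window (y axis) along chromosome 9 in the 4 lists, drawn by distance from the 120 Mb boundary (x axis, in Mb; dashed line at 0). To the right of the boundary, treated wild type reaches 47 intervals in a window, against at most 16, 9 and 5 in untreated wild type, untreated knockout and treated knockout.

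From 120 Mb to the end, treated wild-type cells stood apart from the other 3 conditions. The untreated wild-type list held 120 intervals there, the treated wild-type list 379, the untreated knockout list 57 and the treated knockout list 27. As a share of the list, this was 0.785% in untreated wild type (95% interval 0.651 to 0.938), 3.93% in treated wild type (3.55 to 4.33), 0.456% in untreated knockout (0.346 to 0.591) and 0.36% in treated knockout (0.238 to 0.524). The share in treated wild type lay above the other shares with no overlap of the intervals. The 2 knockout shares overlapped each other, and the treated knockout share lay below that of untreated wild type.

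Before 120 Mb the order was different and the shares were closer together. Untreated wild type held 344 intervals there, or 2.25% of its list (2.02 to 2.5), and untreated knockout 212, or 1.7% (1.48 to 1.94). Treated wild type held 161, or 1.67% (1.42 to 1.94), and treated knockout 95, or 1.27% (1.03 to 1.55). The shares of treated wild type and untreated knockout did not differ beyond their counting error. Of all chromosome 9 intervals, the stretch from 120 Mb thus held 25.9% in untreated wild type (21.9 to 30.1), 21.2% in untreated knockout (16.5 to 26.6) and 22.1% in treated knockout (15.1 to 30.5), but 70.2% in treated wild type (66.1 to 74).

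**Figure D2:**
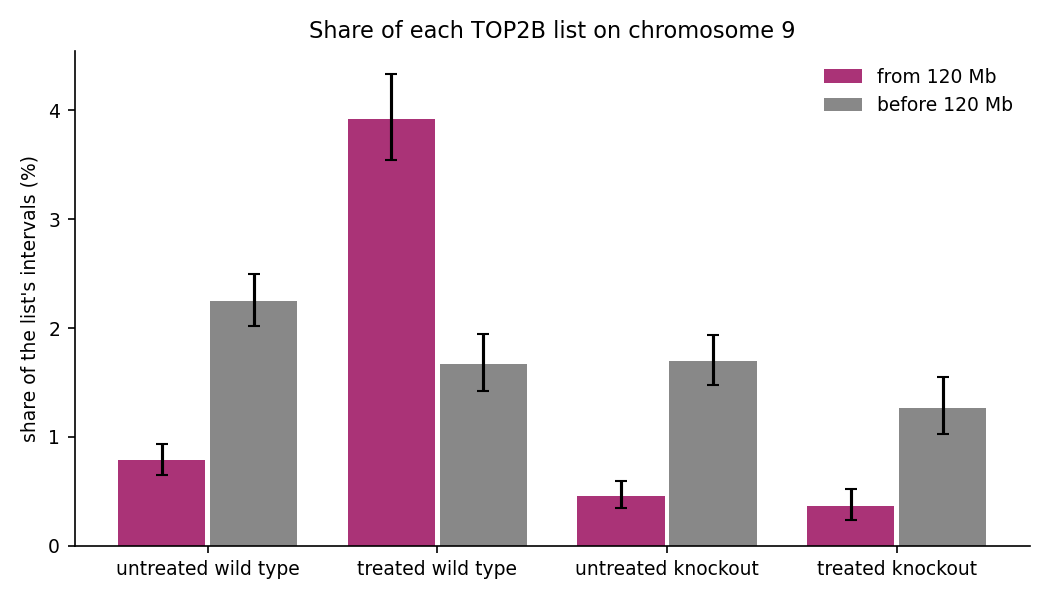
Share of each list's intervals (y axis, %) that lay on chromosome 9 from 120 Mb or before it, for the 4 lists (x axis); bars are shares and error bars are exact 95% intervals for counting error. From 120 Mb the share is 3.93% in treated wild type and under 1% in the other lists.

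The 2 wild-type lists show where TOP2B peaks lay before and after growth under the drug. From 120 Mb the share of the list under osimertinib was 5.00 times that in untreated cells (95% interval 4.06 to 6.19), and the number of intervals was 3.16 times as high although the treated list was shorter. Before 120 Mb the ratio of shares was 0.741 (0.61 to 0.896), with 0.468 times as many intervals. The odds that a chromosome 9 interval lay from 120 Mb, which do not depend on the length of the list, were 6.73 times as high under osimertinib (5.06 to 9). Some intervals are pieces of 1 called peak that was split when replicates were intersected. Counting each called peak once left 287 treated and 109 untreated peaks from 120 Mb, a ratio of shares of 4.17 (3.34 to 5.25). Limiting both lists to called peaks with a maximum of at least the median of their list left 160 treated and 14 untreated intervals, a ratio of 15.99 (9.26 to 29.9). On all other chromosomes this limit kept 52.8% of untreated and 59.8% of treated wild-type intervals. In the knockout it kept 74.6% of untreated and 64.6% of treated intervals there, so the lists were not cut alike.

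The excess was spread over the whole stretch. Windows of 1 Mb with at least 10 intervals in either list were compared, and those whose ratio of shares reached 2 in either direction, with 0.5 added to both counts, were called. All 14 windows examined from 120 Mb were at least 2-fold higher under osimertinib, against 33.0% of the 464 windows examined over the genome (36.0% were at least 2-fold lower, 69.0% past 2-fold in all). Only those that start at 136, 137 and 138 Mb reached 10 intervals in the untreated list. The others were examined only because of their treated count, so the filter favoured this direction. The ratios of the 14 windows ran from 3.11 to 10.6 with a median of 5.09, while the median over the genome was 0.869. Among all 20 windows there with an interval in either list, 18 held more under osimertinib, 2 held equal numbers and 0 held fewer. Of the 44 such windows before 120 Mb, 5 held more, 2 equal numbers and 37 fewer. At 120 to 127 Mb there were 13 untreated and 43 treated intervals, a ratio of shares of 5.24 (2.76 to 10.6). At 127 to 134 Mb there were 38 and 139 (5.79, 4.02 to 8.52), and from 134 Mb to the end 69 and 197 (4.52, 3.42 to 6.03). The ratios of these 3 pieces did not differ beyond their counting error.

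The windows with the highest ratios were those with few untreated intervals. At 127 to 128 Mb there were 3 untreated and 23 treated intervals (12.1, 3.67 to 63.1), at 132 to 133 Mb 3 and 22 (11.6, 3.49 to 60.6), and at 139 to 140 Mb 6 and 32 (8.44, 3.48 to 24.7). The most intervals in any window of the stretch were at 137 to 138 Mb, with 47 treated and 15 untreated. The next were 34 treated and 16 untreated at 136 to 137 Mb. Across the 20 windows filled in any list, Spearman's rho of the counts was 0.842 between the wild-type lists and 0.751 between the treated lists, and Pearson's r was 0.828 and 0.644. Windows that held more intervals in one list thus tended to hold more in the other; these windows share libraries and neighbours and are not replicates.

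Before 120 Mb, 0 of the 10 windows examined in wild type were at least 2-fold higher and 3 were at least 2-fold lower under osimertinib, against 36.0% lower over the genome. The lower windows were 98 to 99 Mb with 14 untreated and 1 treated intervals, 92 to 93 Mb with 28 and 8 (0.452, 0.178 to 1.02), and 97 to 98 Mb with 11 and 3 (0.432, 0.0773 to 1.63). The last 2 intervals include equality. The stretch next to the empty part was nearly bare in treated wild type. Up to 90 Mb it held 39 intervals in untreated wild type and 4 in treated wild type (ratio of shares 0.162, 0.0421 to 0.45), and the first treated interval started at 78817801, against 66857851 in untreated wild type. From 90 to 120 Mb the counts were 305 and 157 (0.815, 0.668 to 0.991). The densest window of this stretch in both lists was 116 to 117 Mb, with 48 untreated and 28 treated intervals.

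In the knockout, the same comparison showed no such excess from 120 Mb. The ratio of shares was 0.79 (0.48 to 1.27) from 120 Mb and 0.747 (0.58 to 0.956) before it, and the odds of lying from 120 Mb were 1.06 times those in untreated knockout (0.603 to 1.82). Limited to called peaks with a maximum of at least the median of their list, 4 treated and 27 untreated intervals were left from 120 Mb, and the ratio was 0.286 (0.0728 to 0.822). From 120 Mb, 0 windows reached 10 intervals in either knockout list. The treated knockout list was the shorter, with 7493 intervals against 12493. Of the 45 windows before 120 Mb with an interval in either list, 35 held fewer under osimertinib, 4 more and 6 equal numbers. Of the 15 such windows from 120 Mb, 10 held fewer, 3 held more and 2 held equal numbers. The fullest were the window that starts at 124 Mb in the untreated knockout, with 9 intervals against 1 treated, and 140 to 141 Mb in the treated knockout, with 5 against 6 untreated. Before 120 Mb, 2 of 8 windows examined were at least 2-fold lower under osimertinib and 0 higher, against 15.2% lower and 2.90% higher, 18.1% in all, of 276 windows over the genome. They were 100 to 101 Mb, with 10 untreated and 0 treated intervals, and 117 to 118 Mb, with 13 and 3 (0.385, 0.0703 to 1.4). The stretch up to 90 Mb held 43 untreated and 18 treated knockout intervals (0.698, 0.379 to 1.24).

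**Figure D3:**
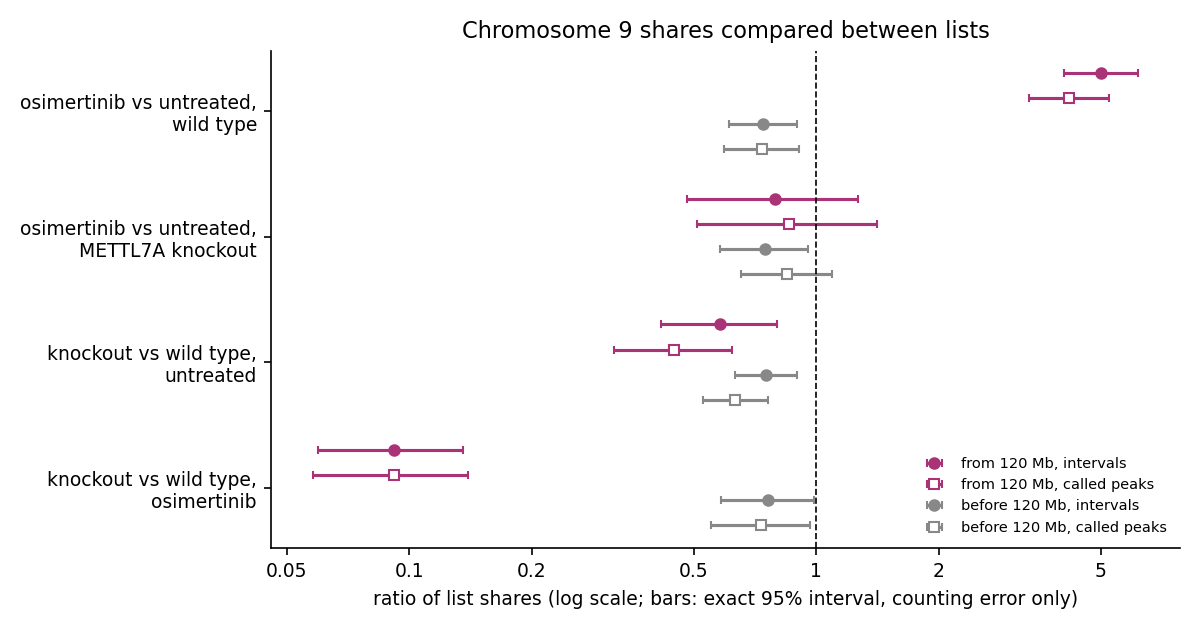
Ratio of list shares (x axis, log scale) in the 4 comparisons (y axis) for chromosome 9 from 120 Mb and before it, by deposited intervals (filled circles) and with each called peak counted once (open squares); bars are exact 95% intervals for counting error, and the dashed line marks equal shares. The points from 120 Mb lie near 5 for osimertinib in wild type and near 0.09 for the treated knockout against treated wild type.

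Without drug, the knockout held a smaller share of its list on chromosome 9 than wild type. From 120 Mb the ratio was 0.581 (0.416 to 0.803) and before 120 Mb it was 0.754 (0.632 to 0.897), and these intervals overlapped. The odds of lying from 120 Mb were 0.771 times those in wild type (0.528 to 1.12). Both ratios crossed 1 when the lists were limited to called peaks with a maximum of at least the median of their list, to 1.65 (0.834 to 3.4) and 1.26 (0.948 to 1.68). This limit kept unlike parts of the lists, on all other chromosomes 52.8% of untreated wild-type and 74.6% of untreated knockout intervals. The cause of the crossing was not tested. Of the 14 windows examined on chromosome 9, 3 had a knockout share at least 2-fold lower and 0 at least 2-fold higher, against 18.3% lower and 3.61% higher, 21.9% in all, of 360 windows over the genome. All 3 lay before 120 Mb: 97 to 98 Mb with 11 wild-type and 3 knockout intervals (0.334, 0.0598 to 1.26), 116 to 117 Mb with 48 and 16 (0.408, 0.216 to 0.731), and 101 to 102 Mb with 34 and 12 (0.432, 0.204 to 0.855).

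Under osimertinib, the knockout held 0.0918 times the wild-type share from 120 Mb (0.0597 to 0.136) and 0.76 times the share before 120 Mb (0.584 to 0.986). The odds of lying from 120 Mb were 0.121 times those in treated wild type (0.073 to 0.196). All 14 windows examined from 120 Mb had a treated knockout share at least 2-fold lower, as had 3 of 5 before it, against 51.0% of 353 windows over the genome (28.0% were at least 2-fold higher, 79.0% past 2-fold in all). From 120 Mb the treated knockout held at most 5 intervals in a window. All 14 were thus examined only because of their treated wild-type count, and the filter favoured this direction. The treated knockout list was the shorter, with 7493 intervals against 9655. Among windows of any size before 120 Mb, 21 of 36 held fewer intervals in the treated knockout, 11 more and 4 equal numbers. Of those from 120 Mb, 20 of 20 held fewer. By the rule for naming windows, the lowest were 127 to 128 Mb with 23 wild-type and 0 knockout intervals, 135 to 136 Mb with 14 and 0, and 130 to 131 Mb with 30 and 1. Among the 14 windows examined, the difference was smallest at 140 to 141 Mb, with 28 and 5 (0.23, 0.0694 to 0.604). In the other direction, up to 90 Mb the knockout held 18 intervals and wild type 4, a ratio of shares of 5.8 (1.91 to 23.6).

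The spacing of intervals from 120 Mb followed their number, since the stretch is the same in every list, and pieces of split peaks add to the clusters given here. In treated wild type their midpoints had a median spacing of 18.8 kb, against 67.8 kb in untreated wild type, 114 kb in untreated knockout and 378 kb in treated knockout. Joining intervals no more than 50 kb apart gave 29 clusters of at least 5 intervals in treated wild type, which held 66.8% of its intervals from 120 Mb; untreated wild type had 3 such clusters with 14.2%, and the knockout lists had 0. The fullest treated wild-type clusters were at chr9:137121001-137351800, with 20 intervals from 12 called peaks, and at chr9:137911101-138301650, with 19 from 15. The fullest of untreated wild type was at chr9:138019151-138169000, with 7 intervals from 7 called peaks, and lies within the second of these. Before 120 Mb, where untreated wild type held more intervals, untreated wild type had 17 such clusters with 57.8% of its intervals, and treated wild type 7 with 38.5%. The fullest cluster of either stretch was in untreated wild type at chr9:116669051-117315900, with 42 intervals from 29 called peaks. A treated wild-type cluster of 21 intervals, at chr9:116833301-117233200, lies inside it.

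Widths followed the list and not the stretch. From 120 Mb the median width was 2275 bp in untreated wild type (interquartile range 1688 to 2800), 1200 bp in treated wild type (950 to 1450), 1550 bp in untreated knockout (1000 to 1950) and 1150 bp in treated knockout (700 to 1400). Before 120 Mb the medians were 2450, 1150, 1550 and 1050 bp in the same order, and on all other chromosomes 2600, 1200, 1650 and 1150 bp. The intervals from 120 Mb covered 266 kb in untreated wild type, 459.6 kb in treated wild type, 88.9 kb in untreated knockout and 28.5 kb in treated knockout. By share of the length covered, the ratio of treated to untreated wild type was 6.96.

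Fewer intervals of chromosome 9 than of the other chromosomes belonged to called peaks at or above the median maximum of their list. The maximum of a called peak is a deposited signal, its highest coverage, and was compared only within a list. The lists do not show whether it comes from both replicates or from 1 of them. The maxima of a list are multiples of a unit, here called a step. On chromosome 9 their median was 10 steps in untreated wild type, 10 in treated wild type, 5 in untreated knockout and 7 in treated knockout. Over the whole lists it was 12, 11, 5 and 8 steps in the same order, so these differences were small or absent. From 120 Mb, 11.7% of the untreated wild-type intervals belonged to peaks at or above the median maximum of the list (6.53 to 18.8), against 24.4% before 120 Mb (20 to 29.3) and 52.8% on all other chromosomes (52 to 53.6). In the untreated knockout the shares were 47.4% (34 to 61), 58.5% (51.5 to 65.2) and 74.6% (73.9 to 75.4), and in the treated knockout 14.8% (4.19 to 33.7), 38.9% (29.1 to 49.5) and 64.6% (63.5 to 65.7). In these 3 lists the value was lower from 120 Mb than before it, with overlapping intervals in the knockout lists. Treated wild type had the opposite order, with 42.2% from 120 Mb (37.2 to 47.4), 29.8% before it (22.9 to 37.5) and 59.8% on other chromosomes (58.8 to 60.9); the first 2 of these intervals also overlapped. Where a peak was split, its pieces share 1 maximum. From 120 Mb, 16.7% of untreated and 43.3% of treated wild-type intervals were such pieces, 0% in untreated knockout and 22.2% in treated knockout. On chromosome 9, 48.1% of untreated and 71.3% of treated wild-type intervals did not hold the region of their peak's maximum. In the knockout this was so for 13% of untreated and 50% of treated intervals. The position of an interval thus need not be that of the maximum given for it.

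**Figure D4:**
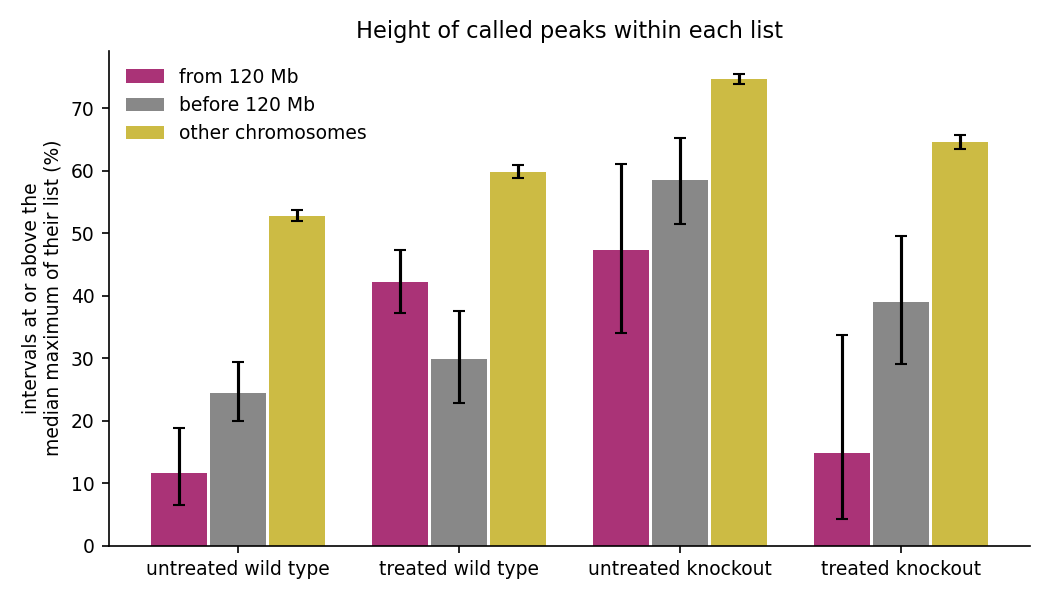
Share of intervals (y axis, %) whose called peak has a maximum at or above the median of its own list, for chromosome 9 from 120 Mb, before 120 Mb and all other chromosomes in the 4 lists (x axis); error bars are exact 95% intervals. Chromosome 9 lies below the other chromosomes in each list, and only in treated wild type is the bar from 120 Mb (42.2%) above that before 120 Mb (29.8%).

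The highest called peaks of the stretch from 120 Mb reached at most 1.8 times the median maximum of their lists. In treated wild type they gave chr9:130892901-130893400 (1.73 times the list median), chr9:132401551-132403700 (1.45 times) and chr9:127258951-127259150 (1.36 times). In the treated knockout they gave chr9:130893351-130894500 (1.25 times), chr9:136529451-136530600 (1.12 times) and chr9:129395251-129396650 (1 times the median). The first intervals named for the 2 treated lists overlapped each other only at their edges, from 130893351 to 130893400, and neither overlapped an untreated interval. In untreated wild type the highest were 3 pieces of 1 called peak between 137150251 and 137172850 (1.08 times), with a counterpart in none of the other lists. In untreated knockout they were chr9:136842301-136844200 (1.8 times), chr9:138509351-138511350 (1.6 times) and chr9:136812851-136813750 (1.4 times). The widest interval from 120 Mb was chr9:123145901-123151350 in untreated wild type, 5450 bp long and overlapped in treated wild type.

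Before 120 Mb the highest peaks of 3 lists lay close together in the stretch next to the empty part. The highest of the untreated knockout was chr9:68414951-68417200 (2 times its list median), and the treated knockout had pieces of 1 called peak at chr9:68413451-68414950 and chr9:68415901-68417200 (1.88 times). Untreated wild type had its highest at chr9:68423851-68426300 (1.42 times) and also held an interval over the knockout position, while treated wild type held 0 intervals in that window. The highest of treated wild type before 120 Mb was chr9:117002251-117003300 (1.36 times), overlapped in untreated wild type. The widest interval of chromosome 9 was chr9:96656451-96668550 in untreated wild type, 12100 bp long and overlapped in both treated lists.

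Position by position, most treated wild-type intervals from 120 Mb lay where no untreated interval was listed. Overlap by 1 bp or more with any interval of a second list made that interval a counterpart. Of the 379 treated intervals, 33 had an untreated counterpart (8.71%, 6.07 to 12), against 28% before 120 Mb (21.2 to 35.6) and 29.5% on all other chromosomes (28.6 to 30.5). Seen from the untreated list, 26 of 120 intervals from 120 Mb had a treated counterpart (21.7%, 14.7 to 30.1), against 11.9% before 120 Mb (8.69 to 15.8) and 14.9% elsewhere (14.3 to 15.4). Each share depends on how many intervals the other list has nearby. The untreated intervals lay a median of 3.43 kb from the nearest treated interval, and 70.8% of them were within 10 kb (61.8 to 78.8); the treated intervals lay a median of 21.2 kb from the nearest untreated one.

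The other comparisons gave fewer counterparts on chromosome 9 than elsewhere, with 1 exception from 120 Mb. Of the 57 untreated knockout intervals there, 5 overlapped an untreated wild-type interval (8.77%, 2.91 to 19.3), against 27.4% before 120 Mb (21.5 to 33.9) and 54.3% elsewhere (53.5 to 55.2). Of the 27 treated knockout intervals, 2 overlapped an untreated knockout interval (7.41%, 0.91 to 24.3), against 20% before 120 Mb (12.5 to 29.5) and 44.1% elsewhere (43 to 45.2). With treated wild type, 7 of the 27 overlapped (25.9%, 11.1 to 46.3), against 6.32% before 120 Mb (2.35 to 13.2) and 13.5% elsewhere (12.7 to 14.3). These 95% intervals overlapped. Seen from treated wild type, 1.85% of its intervals from 120 Mb (0.746 to 3.77) had a treated knockout counterpart. This compares with 3.73% before 120 Mb (1.38 to 7.93) and 11% elsewhere (10.3 to 11.6).

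**Figure D5:**
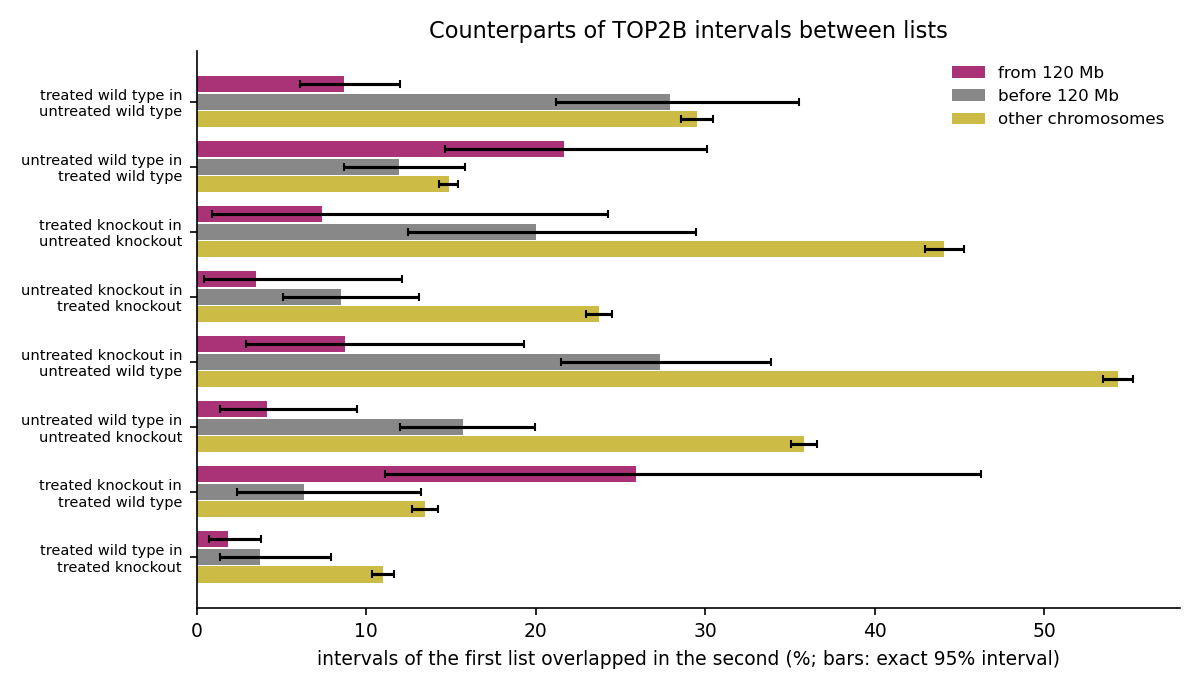
Share of the intervals of a first list that are overlapped by at least 1 bp in a second list (x axis, %), for each ordered pair of lists (y axis), on chromosome 9 from 120 Mb, before 120 Mb and on all other chromosomes; bars carry exact 95% intervals. Treated wild-type intervals from 120 Mb had an untreated counterpart in 8.71% of cases, against 29.5% on other chromosomes.

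No position of chromosome 9 was occupied in all 4 lists. Merging overlapping intervals of the 4 lists gave 1188 positions, of which 0 held an interval of every list; a count of 0 allows up to 0.253%. On all other chromosomes 669 of 28009 merged positions did (2.39%, 2.21 to 2.57). From 120 Mb, 334 of 529 merged positions were in treated wild type only (63.1%, 58.9 to 67.3). Another 91 were in untreated wild type only (17.2%, against 27.1% on all other chromosomes). In untreated knockout only there were 44 (8.32%, against 16.9%), and in treated knockout only 18 (3.4%, against 7.62%). Before 120 Mb, 102 of 659 were in treated wild type only (15.5%, 12.8 to 18.5), against 20.8% elsewhere (20.3 to 21.2).

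Merged positions with intervals of 3 lists numbered 5 from 120 Mb (0.945%) and 25 before it (3.79%), against 7.83% on all other chromosomes. At 1 of the 5 and 5 of the 25, no base was common to the 3 lists, because 1 interval joined 2 others that did not overlap each other. From 120 Mb, 4 held intervals of both wild-type lists and 1 knockout list: chr9:136919551-136923550 and chr9:137233151-137236550 with the untreated knockout, and chr9:139239601-139244250 and chr9:140001501-140004800 with the treated knockout, the last of them without a common base. The other was chr9:140776651-140782300, which lacked treated wild type. Before 120 Mb, 12 of the 25 lacked only treated wild type. On all other chromosomes this was so for 1522 of 2192. The 12 included chr9:66857851-66861800, chr9:68414951-68422900 and chr9:68998151-69002700. At the first of these the segment common to the other 3 lists was chr9:66859051-66860250, 1200 bp long.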

How the data were processed

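Per the labels, 8 TOP2B CUT&RUN libraries, 2 for each condition, lie behind the 4 lists; the 8 H2A libraries were not analysed here. Per the submitters' processing notes, the authors used Trimmomatic, FastQC, Bowtie2 2.4.2, SAMtools 1.16, deepTools 3.5.1, SEACR and bedtools 2.30 on GRCh37; how the peak caller was run is not given in the sources used. Each deposited list is named as an intersection of peaks. Its columns, which have no header, were identified from their values as position, area of the called peak (a deposited score), maximum of the called peak (a deposited signal) and the region of that maximum. Starts on chromosome 9 fell on a grid of 50 bp. The scaling of the signal and the depth of the libraries are unknown, as is whether the lists were cut at the same signal. Maxima are given in steps, the unit of which a list's maxima are multiples. From 120 Mb the lowest maximum was 6, 6, 3 and 5 steps in untreated and treated wild type and untreated and treated knockout. On all other chromosomes it was 5, 5, 2 and 4 steps in the same order. A step belongs to its own list, so these values do not compare 1 list with another.

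Intervals were counted by midpoint with Python 3.11.15, pandas 2.3.3 and SciPy 1.17.1. Shares carry Clopper-Pearson 95% intervals. For ratios of shares and odds ratios the 95% interval is exact and conditional on the summed counts. The ratio of shares with its 95% interval, the search for counterparts and the counting of called peaks were tested on simulated data. The simulated intervals lay at random positions, unlike the clustered ones of chromosome 9. The 95% intervals of shares and of odds ratios were not tested in this way. Named windows were, per comparison, the 3 highest and 3 lowest past 2-fold; named intervals were the 3 of the highest maximum and the widest, per list and stretch. The region, these rules and the alternatives were chosen with earlier results of these data known.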

Additional observations from a re-analysis of the deposited data

Results flagged for a closer look

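The change under osimertinib at chromosome 9 from 120 Mb went in opposite directions in the 2 genotypes. The ratio of list shares was 5.00 in wild type, with 379 treated and 120 untreated intervals, and 0.79 in the METTL7A knockout, with 27 and 57. Each genotype has 1 list per treatment, so the difference between the genotypes was not tested. The interval of the knockout ratio, 0.48 to 1.27, includes equality; with only called peaks at or above the median maximum of their list it was 0.286 (0.0728 to 0.822).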

How the results depend on the processing

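Of 71 recomputed values, 53 stayed within the interval of the reported value (counts of windows: within 1.5 times), 16 moved further and 2 reversed. From 120 Mb, the ratio for osimertinib in wild type ranged from 4.17 to 15.99 and that for the treated knockout against treated wild type from 0.0295 to 0.113. Limiting the lists to called peaks at or above their median maximum gave 15.99 in wild type, 0.286 from 120 Mb and 0.577 before it for osimertinib in the knockout, and 0.0295 for the treated knockout against treated wild type. It reversed both ratios of untreated knockout to untreated wild type, to 1.65 from 120 Mb and 1.26 before it. On all other chromosomes this limit kept from 52.8% (untreated wild type) to 74.6% (untreated knockout) of intervals. Summed length gave 6.96 for osimertinib in wild type. The cause of these differences was not tested.

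Shares with a counterpart from 120 Mb were lower when 50% of both intervals had to overlap. For treated in untreated wild type the share was 1.06%, against 4.74% on all other chromosomes. For treated knockout in treated wild type it was 7.41% (0.91 to 24.3), against 5.92%. At or above the median maximum, the same shares were 0.625% (1 of 160) and 50% (2 of 4). Treated in untreated knockout (0 of 4) and untreated knockout in untreated wild type (0 of 27) gave 0%. Shares on other chromosomes under this limit are not given here. For osimertinib in wild type, windows past 2-fold on chromosome 9 numbered 17 of 24 as reported, and 11 of 16 with at least 20 intervals. In the knockout they were 2 of 8 as reported, 1 of 8 by called peaks and 4 of 8 by numbers of intervals. For the untreated lists they were 3 of 14, 5 of 13 and 6 of 14 in the same order. As reported, 69.0%, 18.1% and 21.9% of windows over the genome were past 2-fold in these comparisons. Genome shares under the alternatives are not given here. With at least 20 intervals, 0 windows were left in the knockout. Leaving out the densest window, and keeping only intervals that hold the region of their maximum, were chosen after seeing the data. No paired analysis was possible because each list combines both replicates; for the same reason no replicate could be left out.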
